A study of Mus musculus with 9 samples.

Results

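A set of 32 imprinted genes was followed in sorted cells of the embryonic mouse cortex, chosen by name as genes that act from a single parental copy and are known in the developing brain. Of the 32, 20 are known as paternally expressed and 10 as maternally expressed, and 2, Grb10 and Gnas, use either copy depending on the tissue or transcript. The count table had a row for 31 of the 32 among its 78275 gene IDs, and Zrsr1, a splicing factor gene, was not analysed here. The filter on low counts kept 29 members among 27773 genes. Rtl1 and Phlda2 did not pass it, so they have values but no test. Embryos of a wild-type background were electroporated in utero at E14.5 with a plasmid that carries mCherry and a hairpin embedded in a microRNA, and mCherry-positive cells were sorted 48 h later, at E16.5. Its hairpin aimed at Gpc4 (sh-Gpc4, genotype label Gpc4 knockdown), at Gpc2 (sh-Gpc2, genotype label Gpc2 knockdown) or was a scramble (sh-NT, genotype label WT), with 3 RNA-seq libraries in each group. The tissue label is forebrain and the cells are labelled as progenitors and neurons of the cortex. Gpc4 and Gpc2 are glypicans, heparan sulfate proteoglycans of the cell surface, and the series asks how they act on cortical development. Neither the promoter of the plasmid nor the number of embryos behind a library is given in the labels.

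Genomic imprinting marks a gene by the parent it came from, so that the maternal or the paternal copy is read and the other stays silent. The mark is DNA methylation laid down in the egg or the sperm at control regions, and clusters of neighbouring imprinted genes, often with a long noncoding RNA, share such a region. In the brain many imprinted genes act on growth, on exit of progenitors from the cell cycle and on neuronal migration. Gene counts add both parental copies together, so the values below are total levels and carry nothing on which copy was read.

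Imprinted control regions often lie over promoters rich in CpG, the dinucleotide that carries the methylation mark. RefSeq promoter windows (build GRCm38.p6) span 250 bases before to 50 after an annotated start and were found for 24 of the 32 members, 38 windows in all. The richest window of a member held a median of 13 CpG, and the richest window of a gene over all 27025 genes with a window held a median of 8. The letters TGCCGC, known as the core motif of the imprint-protecting zinc finger protein ZFP57, were searched on both strands. They were found in a window of 8 of the 24 members (33.3%) and of 13.1% of all genes with a window. The 8 were Grb10, Igf2, Meg3, Mest, Nnat, Plagl1, Snrpn and Zim1. A match is a description of the letters only. The following windows belong to paternally expressed members that the results return to, and are shown to compare their CpG content, with each CpG in capitals.
Kcnq1ot1, chr7:143296498-143296797, minus strand: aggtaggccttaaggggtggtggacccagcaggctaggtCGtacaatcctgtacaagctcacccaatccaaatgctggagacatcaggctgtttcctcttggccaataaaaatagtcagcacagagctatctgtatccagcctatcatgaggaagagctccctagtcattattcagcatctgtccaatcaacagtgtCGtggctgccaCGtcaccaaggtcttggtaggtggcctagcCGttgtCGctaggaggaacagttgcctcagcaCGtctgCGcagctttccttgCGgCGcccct
Peg3, chr7:6730370-6730669, minus strand: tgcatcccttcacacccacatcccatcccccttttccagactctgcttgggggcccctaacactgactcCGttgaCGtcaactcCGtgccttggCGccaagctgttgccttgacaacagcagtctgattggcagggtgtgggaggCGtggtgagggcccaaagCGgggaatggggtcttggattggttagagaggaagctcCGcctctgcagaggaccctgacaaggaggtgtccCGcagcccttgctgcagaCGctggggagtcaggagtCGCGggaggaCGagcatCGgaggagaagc
Mest, chr6:30737800-30738099, plus strand: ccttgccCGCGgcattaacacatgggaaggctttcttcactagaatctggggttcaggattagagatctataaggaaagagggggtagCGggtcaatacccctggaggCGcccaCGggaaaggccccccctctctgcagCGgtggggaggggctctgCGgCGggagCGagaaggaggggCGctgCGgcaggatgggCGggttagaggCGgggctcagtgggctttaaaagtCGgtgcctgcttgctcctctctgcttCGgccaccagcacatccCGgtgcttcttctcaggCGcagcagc
Nnat, chr2:157559828-157560127, plus strand: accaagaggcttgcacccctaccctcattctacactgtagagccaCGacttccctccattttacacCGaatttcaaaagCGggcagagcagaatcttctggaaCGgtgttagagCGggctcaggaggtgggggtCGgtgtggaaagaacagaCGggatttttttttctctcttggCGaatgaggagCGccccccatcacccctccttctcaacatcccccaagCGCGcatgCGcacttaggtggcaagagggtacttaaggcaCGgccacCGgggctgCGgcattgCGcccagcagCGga
The Kcnq1ot1 window held 9 CpG and that of Peg3 13, both without TGCCGC. Mest and Nnat held 17 each, with 2 matches of TGCCGC in Mest and 1 in Nnat. The Peg3 window shares 263 bases with that of Usp29, which is read from the opposite strand, so this pair of genes starts back to back. H19 is also the host of a microRNA, whose mature arms are printed as the sequences that H19 RNA can yield, with the seed (bases 2 to 8) in capitals.
mmu-miR-675-5p: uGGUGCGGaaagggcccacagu
mmu-miR-675-3p: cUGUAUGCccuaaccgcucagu
Both arms lie within H19 on the minus strand of chromosome 7, they have different seeds, and the gene counts do not measure them.

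Each library held between 48045603 and 66538437 counted reads. Levels are given as CPM, read counts scaled to library size with TMM, which corrects the totals for differences in composition. Libraries are named by the numbers of their table columns, 1, 3 and 4 for sh-Gpc4 and 1, 2 and 4 for sh-Gpc2 and sh-NT. No label ties a library to an animal or litter of its own, so the p-values speak for the spread among these libraries, which may be technical. The targeted Gpc4 was at 137, 99.9 and 129 CPM in sh-Gpc4 against 165, 188 and 175 CPM in sh-NT, and its log2 fold change of -0.53 (SE 0.21) had adjusted p = 0.488 by the quasi-likelihood test of edgeR. Gpc2 was at 167, 145 and 79.6 CPM in sh-Gpc2 against 200, 207 and 161 CPM in sh-NT, a log2 fold change of -0.54 (SE 0.33, adjusted p = 0.968 in edgeR), and -0.28 without sh-Gpc2 library 4. Gpc2 also averaged below sh-NT under the other hairpin, at 168, 70.3 and 96.6 CPM in sh-Gpc4, and its log2 fold change against sh-NT was -0.76 (SE 0.33, adjusted p = 0.488 in edgeR), or -1.18 without library 1 and -0.51 without library 3. Neither target passed the threshold of 0.05. On the first principal component of genes with a mean log2 CPM above 3, with 71.6% of the variance, sh-Gpc4 library 3 scored 46.7 and sh-Gpc2 library 4 scored 36.6. The next was sh-Gpc4 library 4 at 15.8, and the other libraries lay between -25.8 and -5.7, so those 2 libraries stood apart. Summed radial glia markers, for progenitors of the label, ran from 2187 to 2813 CPM in sh-Gpc4, from 2596 to 3575 in sh-Gpc2 and from 2573 to 2722 in sh-NT. Those of intermediate progenitors ran from 1034 to 1068, from 1028 to 1100 and from 1043 to 1071 CPM. Summed excitatory neuron markers were at 4661 to 5602 CPM in sh-Gpc4, 4504 to 5205 in sh-Gpc2 and 4803 to 5710 in sh-NT, and every marker of these lists was detected. The 13 microglia and macrophage markers, a cell type the label does not name, were present too and summed to 1296 to 1876 CPM in sh-Gpc4, 533 to 1702 in sh-Gpc2 and 954 to 1455 in sh-NT.

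Set per kb of exon, so that genes of different lengths can be compared, the members' levels in sh-NT spanned from 609 ± 9.32 CPM per kb for Nnat to 0.00788 ± 0.00228 for Rtl1 (SD, n = 3). Nnat (neuronatin, a small membrane proteolipid of the endoplasmic reticulum) stood far above the next member, Snrpn (a core splicing protein), at 108 ± 15 CPM per kb. Mest, Grb10, Peg13 and Ndn followed at 83.9 ± 11.9, 53.3 ± 3.02, 45.5 ± 0.834 and 29.8 ± 0.926 CPM per kb, and each of these steps exceeded the larger SD of the neighbours. Lower in the order, Gnas (15.1 ± 1.33) and Plagl1 (14.7 ± 1.79) did not differ beyond their SDs, nor did H19 (5.58 ± 0.639) and Igf2r (5.19 ± 0.253). Igf2 was at 0.0481 ± 0.0145 CPM per kb in sh-NT, with 5 to 42 reads per library over all 9, and Phlda2 had 1 to 4 reads and Rtl1 2 to 11.

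**Figure D1:**
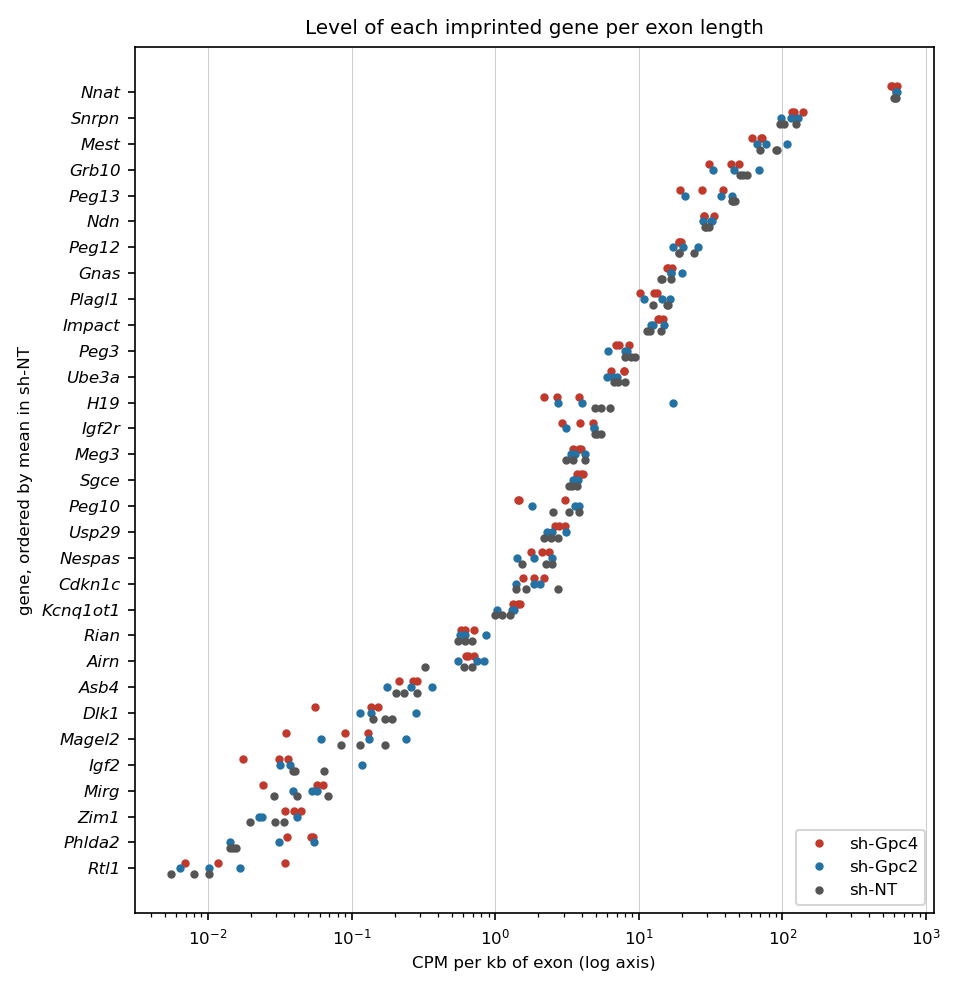
Level of each of the 31 imprinted genes per kb of exon (log axis) in every library, genes ordered by their mean in sh-NT and groups by colour. Nnat sits highest at 609 CPM per kb in sh-NT and Rtl1 lowest at 0.00788, and the widest scatter at a mid level is that of H19.

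The members also differed in how far libraries of the same group lay from each other. The 20 members with a mean log2 CPM above 3 had a median within-group SD of 0.18 on the log2 scale, against 0.16 over all 11968 such genes. Nnat had 1035 to 1151 CPM in the 9 libraries and a within-group SD of 0.05, at percentile 1.0 of those genes, and Sgce had 0.08, at percentile 7.7. H19 was at the other end with an SD of 0.85, at percentile 99.0, followed by Peg10 with 0.53, at percentile 93.3, and Peg13 with 0.44, at percentile 90.2. Among the 29 members, sh-Gpc4 library 3 held the lowest value for 8 and sh-Gpc2 library 2 the highest for 8. The heat map of library values shows these columns.

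**Figure D2:**
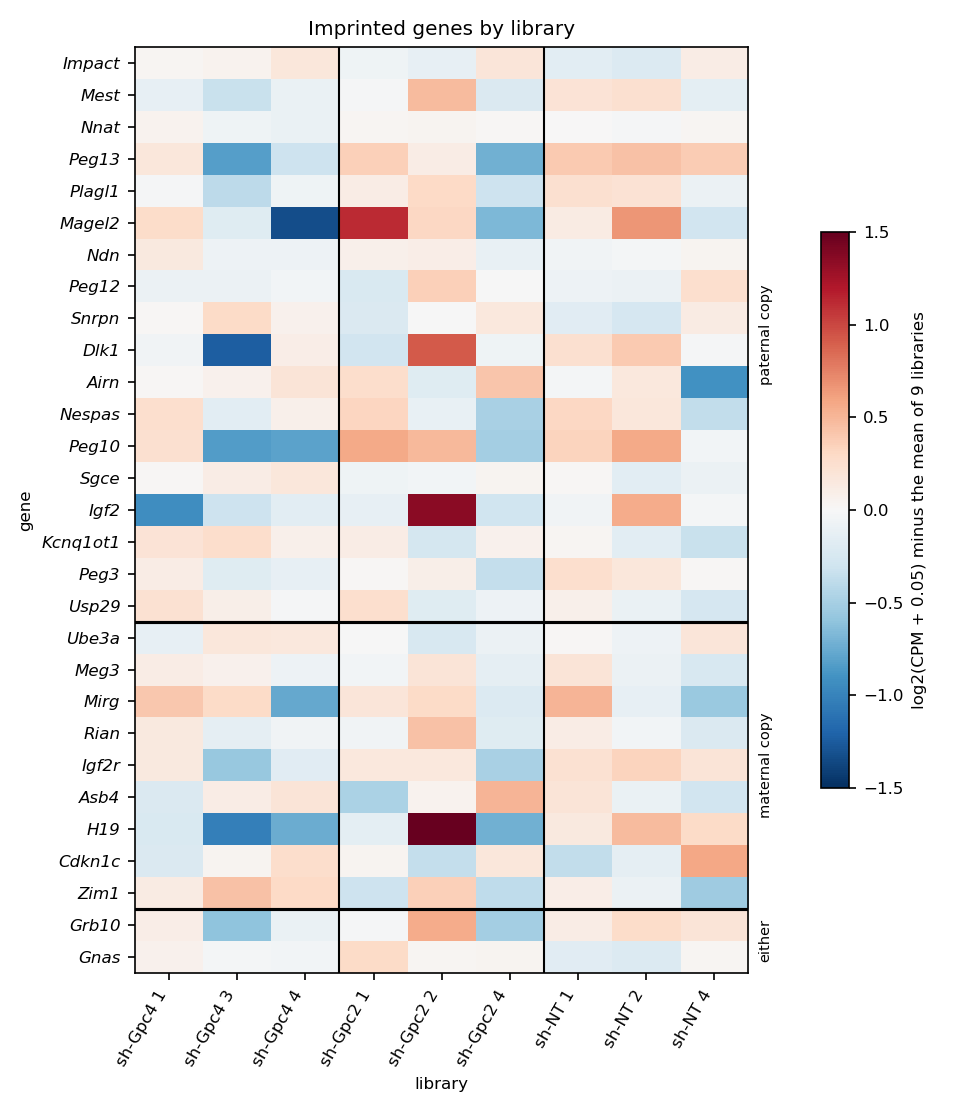
Each tested member's log2(CPM + 0.05) in each library minus its mean over the 9 libraries (colour scale limited to -1.5 and 1.5), with columns sh-Gpc4, sh-Gpc2 and sh-NT and rows by the parental copy known to be read. The row of Nnat is almost even, whereas sh-Gpc2 library 2 stands out for H19, Igf2 and Dlk1.

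No member passed the test in any comparison. edgeR's quasi-likelihood test called 0 of 27773 genes (0%) in sh-Gpc4 against sh-NT, in sh-Gpc2 against sh-NT and in sh-Gpc4 against sh-Gpc2, with smallest adjusted p of 0.488, 0.968 and 0.966. DESeq2 called 39 of 29505 genes (0.132%) in sh-Gpc4 against sh-NT and 0 in the other comparisons, none of them a member, and limma voom called 0 in all 3. At an unadjusted p under 0.05 in edgeR, 2 members lay below it in sh-Gpc4 against sh-NT, Peg13 and Kcnq1ot1, which is 6.9% of 29 against 9.57% of all genes. In sh-Gpc2 against sh-NT it was 1 member, Gnas (3.45% against 2.56% of all genes), and in sh-Gpc4 against sh-Gpc2 1 member, H19 (3.45% against 2.89%). Limma voom with sample weights put 12 members (41.4%) below that p in sh-Gpc4 against sh-NT, beside 32.4% of all genes. It put 1 member (3.45%) there in sh-Gpc2 against sh-NT, beside 2.34%, and 3 (10.3%) in sh-Gpc4 against sh-Gpc2, beside 4.79%. The comparisons with sh-NT share its 3 libraries, so they are not independent of each other.

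The medians of the members lay close to those of all genes. The median log2 fold change of the 18 tested paternally expressed members was -0.07 in sh-Gpc4 and 0.04 in sh-Gpc2 against sh-NT, and that of the 9 tested maternally expressed members 0.03 and 0.11, beside 0.02 and 0.00 over all genes. For 7 of 29 members (24.1%) the 3 sh-Gpc4 libraries lay wholly on one side of the 3 sh-NT libraries, as they did for 24% of all genes. Kcnq1ot1 and Zim1 were the 2 higher ones (6.9% against 10.8% of all genes), and Peg13, Igf2r, H19, Igf2 and Grb10 the 5 lower ones (17.2% against 13.2%). For sh-Gpc2, 3 members (10.3%) were apart from sh-NT beside 7.7% of all genes, Gnas above (3.45% against 3.59%) and Peg13 and Igf2r below (6.9% against 4.11%). Peg13 and Igf2r were thus the 2 members (6.9%) with all 6 hairpin libraries below all sh-NT libraries, beside 2.14% of all genes. These shares lie near the background in sh-Gpc4. Leaving out sh-Gpc4 library 3 and sh-Gpc2 library 4, can only keep or add genes that are apart. Lower members were then 17.2% against 15.3% of all genes in sh-Gpc4 and 6.9% against 7.72% in sh-Gpc2. Higher ones were 6.9% against 14.4% in sh-Gpc4 and, with Ndn added, 6.9% against 6.46% in sh-Gpc2. Peg13 and Igf2r (6.9%) were below sh-NT in every remaining hairpin library, beside 2.66% of all genes. In bulk RNA, fewer cells of a type and less RNA per cell cannot be told apart.

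**Figure D3:**
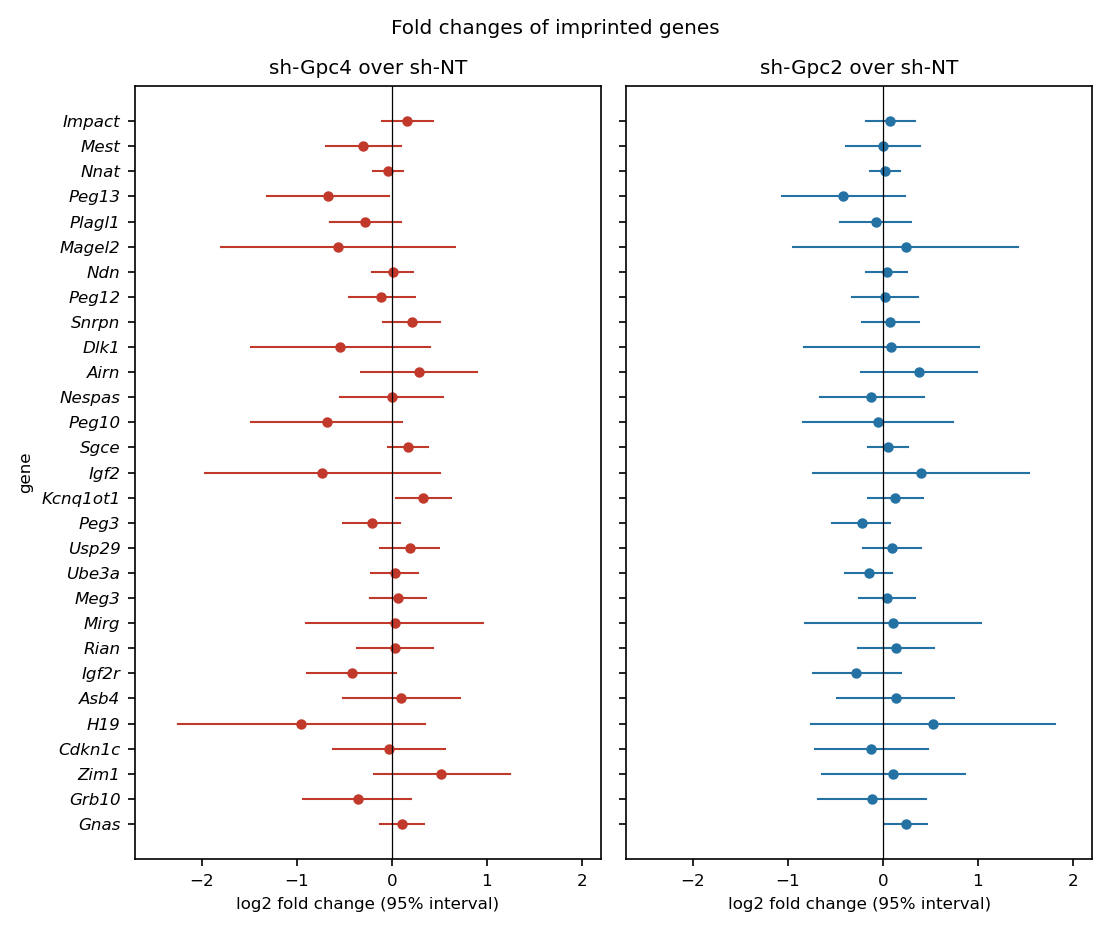
Log2 fold change of each of the 29 tested members, sh-Gpc4 over sh-NT on the left and sh-Gpc2 over sh-NT on the right, with 95% intervals from edgeR. The intervals of Peg13 and Kcnq1ot1 on the left and of Gnas on the right leave out 0, and no adjusted p is under 0.488.

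Peg13 (ENSMUSG00000106847, GRCm38 chromosome 15, 72805600 to 72810324, minus strand) is a paternally expressed noncoding RNA of the brain that lies inside an intron of Trappc9, a gene of vesicle traffic read mostly from the maternal copy in mouse brain. It held 183, 91.6 and 131 CPM in sh-Gpc4 libraries 1, 3 and 4, and 209, 176 and 98.6 CPM in sh-Gpc2 libraries 1, 2 and 4, against 214, 220 and 212 CPM in sh-NT libraries 1, 2 and 4. All hairpin libraries were below sh-NT, and the sh-NT values were far closer together than those of either hairpin group. The log2 fold change was -0.67 in sh-Gpc4 (SE 0.29, 95% interval -1.31 to -0.03, adjusted p = 0.488 in edgeR) and -0.42 in sh-Gpc2 (SE 0.29, 95% interval -1.06 to 0.23, adjusted p = 0.968 in edgeR). The value in sh-Gpc2 was -0.16 without its library 4 and -0.65 without its library 1. Its host Trappc9 had the same shape, with 139, 42.4 and 83.5 CPM in sh-Gpc4 and 151, 142 and 49.3 CPM in sh-Gpc2, against 148, 163 and 153 CPM in sh-NT. The lowest values of both genes fell in sh-Gpc4 library 3 and sh-Gpc2 library 4, the libraries that stood apart. For Trappc9 the log2 fold change was -0.81 in sh-Gpc4 (-1.30 without library 1, -0.48 without library 3) and -0.44 in sh-Gpc2 (-0.08 without library 4), neither past the threshold in edgeR. Reads of unspliced Trappc9 over the Peg13 body cannot be told apart from Peg13 reads, since both genes are on the minus strand.

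**Figure D4:**
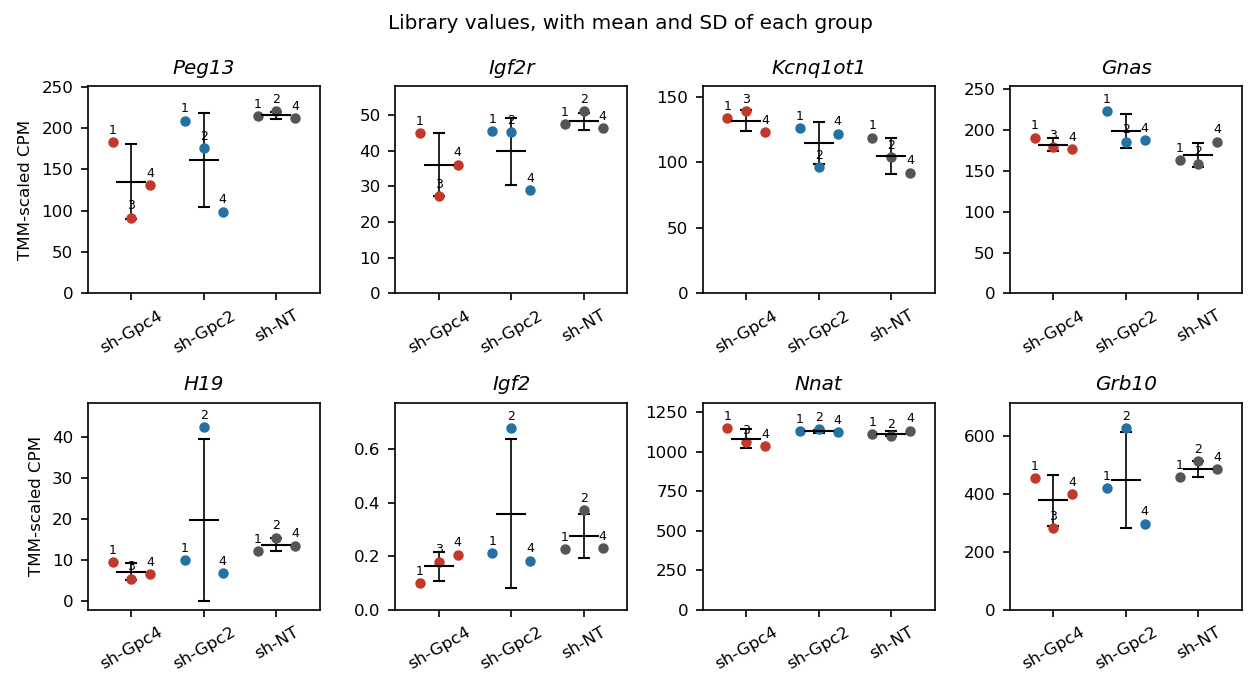
TMM-scaled CPM of 8 imprinted genes in each library (points, numbered by library) for sh-Gpc4, sh-Gpc2 and sh-NT, with the mean (horizontal bar) and SD of each group (n = 3). Peg13 and Igf2r lie below the sh-NT points in every hairpin library, and H19 and Igf2 are highest in sh-Gpc2 library 2, at 42.5 and 0.678 CPM.

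The growth axis of the set runs from Igf2, a fetal growth factor, to Igf2r, the receptor that clears it, and H19, the noncoding RNA beside Igf2 that is read from the other parental copy. H19 (ENSMUSG00000000031, chromosome 7, 142575529 to 142578143, minus strand) was at 9.39, 5.40 and 6.58 CPM in sh-Gpc4 and at 9.96, 42.5 and 6.69 CPM in sh-Gpc2, against 12.2, 15.4 and 13.5 CPM in sh-NT. All sh-Gpc4 libraries were below all sh-NT libraries, while sh-Gpc2 library 2 was above every other library and the other 2 sh-Gpc2 libraries were below sh-NT. The log2 fold change was -0.95 in sh-Gpc4 (SE 0.58, adjusted p = 0.499 in edgeR). In sh-Gpc2 it was 0.53 (SE 0.57, adjusted p = 0.968 in edgeR) and turned to -0.72 without library 2. Igf2 (chromosome 7, 142650766 to 142666816, minus strand) had 0.0999, 0.180 and 0.206 CPM in sh-Gpc4 and 0.212, 0.678 and 0.183 CPM in sh-Gpc2, against 0.225, 0.371 and 0.230 CPM in sh-NT. It thus followed the order of H19 in sh-Gpc2, where its log2 fold change of 0.40 turned to -0.47 without library 2, and in sh-Gpc4 it was -0.73 (SE 0.55, adjusted p = 0.554 in edgeR), or -0.46 without sh-NT library 2. Exons of Igf2 overlap those of Gm49394 on the same strand and of Igf2os on the other, and no source used here says whether counting used strand.

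Values of cell type markers are set beside those of H19 and Igf2. In sh-Gpc2 library 2, where both were highest, the microglia sum was the lowest of all libraries at 533 CPM and the radial glia sum the highest at 3575 CPM. Hes5 alone gave 834 CPM of that radial glia sum and was at most 521 CPM in any other library. Pax6 ran from 139 to 177 CPM over the libraries, with its highest value in the same library. The mural cell list, pericytes and vascular smooth muscle, summed to 12 to 17 CPM in sh-Gpc4 and 10.5 to 23.9 in sh-Gpc2, against 22.7 to 30.1 in sh-NT, so sh-Gpc4 lay below sh-NT in this sum as it did in H19. Without Notch3 and Pdgfrb, left out after their values were seen, the other 8 summed to 5.09 to 7.47 CPM in sh-Gpc4, 4.52 to 7.05 in sh-Gpc2 and 6.69 to 8.67 in sh-NT, which overlap. Of all 10 markers, Kcnj8, Abcc9, Vtn and Higd1b were under 1 CPM in every library. Meningeal fibroblast markers summed to 4.11 to 15 CPM in sh-Gpc4, 5.05 to 8.86 in sh-Gpc2 and 5.20 to 7.38 in sh-NT, with 7 of 12 under 1 CPM in every library. The highest meningeal sum was in sh-Gpc4 library 1, which had the lowest Igf2, on 5 reads. Col1a1 alone gave 7.93 CPM of that sum and was at most 1.01 CPM in any other library. The 8.86 was in sh-Gpc2 library 2, where H19 and Igf2 were highest. Oligodendrocyte precursor markers summed to 1.3 to 4.99 CPM in sh-Gpc4 and 4.7 to 14.6 in sh-Gpc2, against at least 5.46 in sh-NT, so sh-Gpc4 was below sh-NT here too. The 14.6 was in sh-Gpc2 library 2, and Sox10 and Gpr17 were under 1 CPM in every library. Cspg4 is on both this list and the mural list. Markers of GABAergic interneurons and ventral progenitors summed to 8.95 to 12.1 CPM in sh-Gpc4 and 14.4 to 15.9 in sh-Gpc2. In sh-NT they summed to 47.2, 14.4 and 12.3 CPM in libraries 1, 2 and 4. Thus sh-Gpc4 was below sh-NT in this list as well, by the narrow margin of 12.1 against 12.3 CPM. Dlx1 alone gave 16.2 CPM in sh-NT library 1 and was at most 2.81 CPM in any other library. Lhx6, Nkx2-1, Gsx2 and Sst were under 1 CPM in every library. Further lists overlapped between sh-Gpc4 and sh-NT. Endothelial markers summed to 116 to 154 CPM in sh-Gpc4 against 148 to 160 in sh-NT, and erythroid markers to 133 to 282 against 104 to 216. Cajal-Retzius markers summed to 4.51 to 15.2 against 4.92 to 8.4 CPM, and choroid plexus markers to 8.37 to 9.91 against 8.72 to 9.45. The radial glia, intermediate progenitor, excitatory neuron and microglia sums given above overlapped as well. No marker of these lists was at 0 in every library, and their part in the result was not tested.

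Igf2r (ENSMUSG00000023830, chromosome 17, 12682406 to 12769664, minus strand) held 44.9, 27.3 and 36.1 CPM in sh-Gpc4 and 45.4, 45.2 and 29 CPM in sh-Gpc2, against 47.5, 51 and 46.4 CPM in sh-NT. Every hairpin library was below every sh-NT library, by little in sh-Gpc4 library 1 and sh-Gpc2 libraries 1 and 2. The log2 fold change was -0.42 in sh-Gpc4 (SE 0.21, adjusted p = 0.488 in edgeR) and -0.28 in sh-Gpc2 (SE 0.21, adjusted p = 0.968 in edgeR), and these were -0.25 without sh-Gpc4 library 3 and -0.09 without sh-Gpc2 library 4. Airn, the paternal antisense RNA that silences Igf2r in many tissues of the mouse, ran from 1.17 to 2.99 CPM with overlapping groups. Grb10, an adaptor that dampens insulin and insulin-like growth factor receptors, was among the most abundant members, with 453, 280 and 397 CPM in sh-Gpc4 and 419, 626 and 297 CPM in sh-Gpc2, against 457, 512 and 484 CPM in sh-NT. The 3 sh-Gpc4 libraries were below sh-NT, library 1 only just, and sh-Gpc2 reached both above and below all sh-NT libraries. The log2 fold change of Grb10 was -0.36 in sh-Gpc4 (SE 0.25, adjusted p = 0.530 in edgeR) and -0.18 without library 3.

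Kcnq1ot1 (ENSMUSG00000101609, chromosome 7, 143203458 to 143296549, minus strand), whose promoter window is printed above, is a paternally read noncoding RNA that silences its neighbours on the same chromosome. It had 134, 139 and 123 CPM in sh-Gpc4 and 126, 96.5 and 122 CPM in sh-Gpc2, against 119, 104 and 92.1 CPM in sh-NT. All sh-Gpc4 libraries were above all sh-NT libraries, and sh-Gpc2 overlapped both. The log2 fold change in sh-Gpc4 was 0.33 (SE 0.13, 95% interval 0.04 to 0.62, adjusted p = 0.488 in edgeR), and 0.20 with the GC trend of each library removed and 0.21 in limma voom. In sh-Gpc2 it was 0.13 (adjusted p = 0.968 in edgeR). Exons of other genes, Kcnq1 on the opposite strand among them, overlap 1119 of its 93092 exonic bases, and Kcnq1 itself was at 0.142 to 0.27 CPM. Cdkn1c and Phlda2 are the maternally read members of the same cluster. Cdkn1c, the cell cycle inhibitor p57, ran from 3.18 to 4.46 CPM in sh-Gpc4, 2.87 to 4.17 in sh-Gpc2 and 2.85 to 5.54 in sh-NT, and its 95% interval in sh-Gpc4 ran from -0.62 to 0.56 on the log2 scale. Phlda2, a regulator of placental growth, was at or below 0.061 CPM in all libraries.

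Gnas encodes the stimulatory G protein alpha subunit and further transcripts of either parental origin. Its counts were 191, 179 and 177 CPM in sh-Gpc4 and 223, 186 and 188 CPM in sh-Gpc2, against 163, 159 and 186 CPM in sh-NT. The sh-Gpc2 libraries were above sh-NT, although sh-Gpc2 library 2 exceeded sh-NT library 4 by less than the rounding of these values. Its log2 fold change in sh-Gpc2 was 0.24 (SE 0.10, 95% interval 0.01 to 0.46, adjusted p = 0.968 in edgeR), or 0.15 without sh-Gpc2 library 1 and 0.41 with the GC trend removed. The antisense Nespas ran from 4.48 to 7.87 CPM with overlapping groups, and shares exonic sequence with Gnas on the opposite strand.

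The paternally read zinc finger genes Plagl1 and Peg3 averaged below sh-NT in sh-Gpc4 without passing the test. Plagl1, a transcription factor that halts the cell cycle and in mouse acts on other imprinted genes, had 104, 80.1 and 100 CPM in sh-Gpc4 and 113, 129 and 84.9 CPM in sh-Gpc2, against 124, 122 and 98.6 CPM in sh-NT. The groups overlapped, and the log2 fold change in sh-Gpc4 was -0.28 (SE 0.17, adjusted p = 0.497 in edgeR), or -0.16 without its library 3. Peg3, a zinc finger protein of growth and behaviour in mouse, had 113, 92.2 and 96.4 CPM in sh-Gpc4 and 106, 111 and 81.5 CPM in sh-Gpc2, against 125, 118 and 106 CPM in sh-NT. Its log2 fold changes of -0.21 in sh-Gpc4 and -0.22 in sh-Gpc2 had adjusted p of 0.512 and 0.968 in edgeR, and the groups overlapped in both. Its divergent neighbour Usp29, a ubiquitin protease gene, ran from 46.9 to 55.5 CPM in sh-Gpc4, 41.7 to 56.2 in sh-Gpc2 and 39.7 to 49.7 in sh-NT. Zim1, a maternally read zinc finger gene beside Peg3, was apart in sh-Gpc4 at 0.280, 0.360 and 0.324 CPM, while sh-Gpc2 had 0.194, 0.339 and 0.183 CPM and sh-NT 0.274, 0.236 and 0.159 CPM. Its log2 fold change in sh-Gpc4 was 0.52 (SE 0.32, adjusted p = 0.497 in edgeR), or 0.33 without sh-NT library 4, and rests on 9 to 24 reads per library.

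In the chromosome 12 cluster, the maternal noncoding RNAs Meg3 and Rian were well covered by reads, and the paternal coding genes Dlk1 and Rtl1 were not. Meg3 had 71.8, 69.3 and 63.3 CPM in sh-Gpc4 and 64.8, 75.9 and 60.8 CPM in sh-Gpc2, against 76.1, 62.7 and 56.5 CPM in sh-NT. Groups overlapped, and the 95% interval of its log2 fold change ran from -0.23 to 0.36 in sh-Gpc4 and from -0.25 to 0.34 in sh-Gpc2. Rian, a host of small nucleolar RNAs, ran from 9.99 to 15.8 CPM, and Mirg, a host of microRNAs, from 0.177 to 0.499 CPM. Dlk1, a transmembrane relative of the Notch ligands, had 0.779, 0.315 and 0.869 CPM in sh-Gpc4 and 0.653, 1.58 and 0.773 CPM in sh-Gpc2, against 0.966, 1.08 and 0.796 CPM in sh-NT. Its highest value was in sh-Gpc2 library 2 and its lowest in sh-Gpc4 library 3, on 21 to 98 reads, and the groups overlapped. Rtl1, a retrotransposon-derived gene of placenta and muscle, was at 0.0354 to 0.22 CPM.

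The central chromosome 7 genes, in the region that corresponds to the human Prader-Willi and Angelman region, overlapped between groups without exception. Snrpn ran from 251 to 301 CPM in sh-Gpc4, 212 to 277 in sh-Gpc2 and 208 to 269 in sh-NT. Ndn (necdin, a MAGE family protein of differentiating neurons) had 123, 105 and 105 CPM in sh-Gpc4 and 117, 119 and 103 CPM in sh-Gpc2, against 107, 109 and 114 CPM in sh-NT. Its groups overlapped, and the interval of its log2 fold change was -0.21 to 0.22 in sh-Gpc4 and -0.18 to 0.25 in sh-Gpc2. Peg12, whose protein binds the kinase GSK3, ran from 45.6 to 68.3 CPM over all libraries. Magel2, a MAGE family regulator of protein recycling, was low and uneven at 0.162 to 1.11 CPM. Ube3a, the ubiquitin ligase read from the maternal copy in mature neurons, had 133, 163 and 162 CPM in sh-Gpc4 and 145, 123 and 136 CPM in sh-Gpc2, against 147, 138 and 164 CPM in sh-NT, with overlapping groups. Exons of Snrpn overlap Snurf, and those of Ube3a overlap Snhg14 on the opposite strand.

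The remaining members are paternally read except Asb4. Mest, a member of the alpha/beta hydrolase family, had 281, 242 and 286 CPM in sh-Gpc4 and 303, 424 and 264 CPM in sh-Gpc2, against 354, 362 and 277 CPM in sh-NT. Its groups overlapped, with a log2 fold change of -0.30 in sh-Gpc4 (SE 0.17, adjusted p = 0.491 in edgeR). Peg10, a retrotransposon-derived Gag-like gene, had 20.4, 9.64 and 9.82 CPM in sh-Gpc4 and 25.6, 24.1 and 12.1 CPM in sh-Gpc2, against 21.7, 25.5 and 16.8 CPM in sh-NT. Its 3 lowest values were those of sh-Gpc4 libraries 3 and 4 and sh-Gpc2 library 4, and the log2 fold change of -0.68 in sh-Gpc4 (SE 0.35, adjusted p = 0.488 in edgeR) was -1.13 without library 1. Sgce, epsilon-sarcoglycan, which starts next to Peg10 on the other strand, had 39.2, 41.8 and 43.7 CPM in sh-Gpc4 and 37.1, 37.7 and 39.9 CPM in sh-Gpc2, against 39.3, 34.8 and 36.6 CPM in sh-NT. Its groups overlapped by the narrow margin of sh-Gpc4 library 1 against sh-NT library 1, and its log2 fold change in sh-Gpc4 of 0.17 (SE 0.09, adjusted p = 0.488 in edgeR) was 0.01 with the GC trend removed. Impact, an inhibitor of the kinase GCN2, ran from 58.9 to 77.0 CPM and Asb4, a SOCS box protein, from 0.689 to 1.42 CPM, both with overlapping groups. Nnat, the most abundant member, had a 95% interval of -0.20 to 0.12 in sh-Gpc4 and -0.14 to 0.18 in sh-Gpc2 on the log2 scale.

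Members that share an imprinted cluster were compared across the 9 libraries as 26 pairs on log2 CPM, with two-sided exact permutation p and Benjamini-Hochberg adjustment over the 26. None passed the threshold. The strongest were Igf2 with H19 (Pearson r 0.83, exact permutation p = 0.0119, adjusted p = 0.0772; Spearman rho 0.88, exact permutation p = 0.00308, adjusted p = 0.079), whose r was 0.79 without the 2 libraries farthest from the median of Igf2. Meg3 and Rian had r 0.82 (exact permutation p = 0.00475, adjusted p = 0.0655) and rho 0.80 (exact permutation p = 0.0138, adjusted p = 0.0927), with r 0.75 without the 2 farthest libraries. Meg3 and Mirg had r 0.82 (exact permutation p = 0.00779, adjusted p = 0.0675) and rho 0.85 (exact permutation p = 0.00607, adjusted p = 0.079), with r 0.77 without them. All 3 pairs kept r of 0.75 to 0.84 with values centred on group means. Peg10 and Sgce ran in opposite directions, with r -0.83 (exact permutation p = 0.00503, adjusted p = 0.0655) and rho -0.77 (exact permutation p = 0.0214, adjusted p = 0.0927), and r was -0.55 without sh-Gpc4 libraries 3 and 4, the farthest from the median of Peg10. It was -0.80 without the 2 libraries that stood apart and -0.72 with values centred on group means.

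Weaker relations were measured for a pair that shares a start region and for a silencing RNA with its target. Peg3 and Usp29, whose promoter windows overlap, had r 0.10 (exact permutation p = 0.794, adjusted p = 0.860) and rho 0.05 (exact permutation p = 0.912, adjusted p = 1), and r was -0.14 without the 2 farthest libraries. For Airn and Igf2r r was -0.39 (exact permutation p = 0.315, adjusted p = 0.587) and rho -0.37 (exact permutation p = 0.336, adjusted p = 0.514), with r -0.10 without the 2 farthest. Outside the 26, Peg13 and its host Trappc9, a pair chosen after its values were seen, had r 0.99 (exact permutation p = 3.03e-05) and rho 0.93 (exact permutation p = 0.00075), and r was 0.96 without the libraries that stood apart. Over all 190 pairs of the 20 members with a mean log2 CPM above 3, 25 had an r of at least 0.8 in size (13.2%), 18 of them positive and 7 negative, and 15.1% of all pairs of the 11968 such genes did. These libraries share the component on which sh-Gpc4 library 3 and sh-Gpc2 library 4 stand apart, and its part in the relations was not tested beyond leaving them out.

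**Figure D5:**
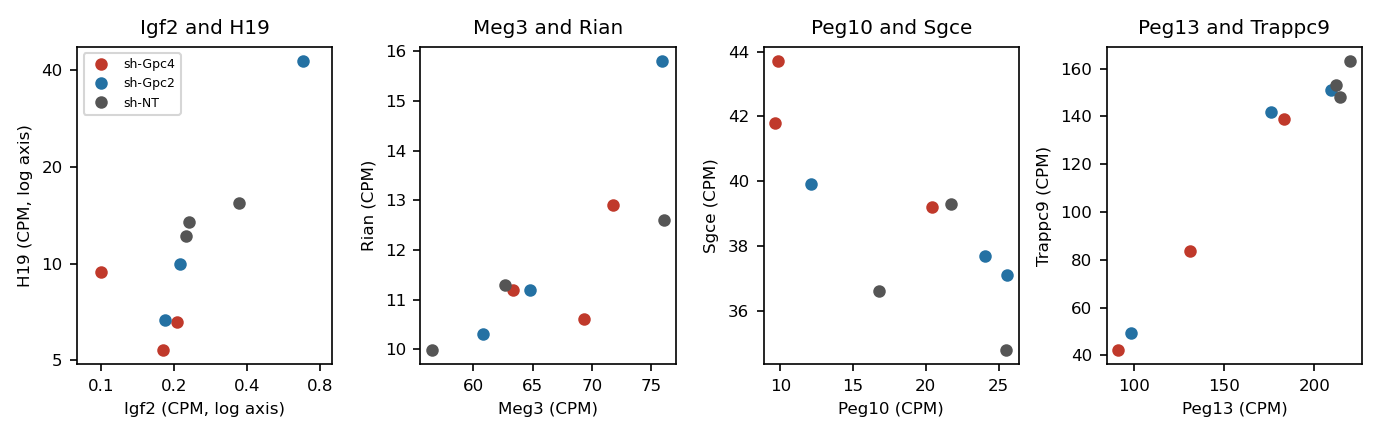
CPM of 4 gene pairs in the 9 libraries, coloured sh-Gpc4, sh-Gpc2 and sh-NT, with log axes for Igf2 and H19. Igf2 with H19, Meg3 with Rian and Peg13 with Trappc9 have positive r of 0.83, 0.82 and 0.99 on log2 CPM, and Peg10 with Sgce a negative r of -0.83.

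Between the hairpin groups themselves, no member had sh-Gpc4 wholly apart from sh-Gpc2, against 5.5% of all genes. H19 had the smallest p among the members, with 9.39, 5.40 and 6.58 CPM in sh-Gpc4 against 9.96, 42.5 and 6.69 CPM in sh-Gpc2, which overlap. Its log2 fold change of -1.47 (SE 0.59, 95% interval -2.79 to -0.16, adjusted p = 0.966 in edgeR) was -0.23 without sh-Gpc2 library 2. That of Igf2 was -1.13 (SE 0.54, adjusted p = 0.966 in edgeR) and -0.25 without the same library.

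Further imprinted genes, listed apart from the 32, gave no call either. None of 10 tested paternally expressed and 15 tested maternally expressed ones passed the test of edgeR in any comparison. Nap1l5, a paternally read nucleosome assembly protein gene, held 19.5, 22.7 and 17.6 CPM in sh-Gpc4 and 17, 18.9 and 20.3 CPM in sh-Gpc2, against 13.9, 10.8 and 16 CPM in sh-NT. All hairpin libraries were above all sh-NT libraries, as for 1.65% of all genes, and the log2 fold change was 0.55 in sh-Gpc4 (SE 0.16, unadjusted p = 0.00784, adjusted p = 0.488 in edgeR) and 0.46 in sh-Gpc2 (SE 0.16, unadjusted p = 0.0197, adjusted p = 0.968 in edgeR). Zdbf2 and Inpp5f, also paternally read, had 12.5, 13.3 and 13.9 CPM and 290, 379 and 312 CPM in sh-Gpc4, against 12.2, 10.9 and 11 CPM and 276, 242 and 295 CPM in sh-NT. Of maternally read genes, Slc22a18 was at 0.180, 0.315 and 0.324 CPM in sh-Gpc4 against 0.113, 0.0506 and 0.124 CPM in sh-NT (adjusted p = 0.488 in edgeR). Cobl lay the other way, with 0.14, 0.045 and 0.147 CPM in sh-Gpc4 against 0.418, 0.321 and 0.142 CPM in sh-NT (adjusted p = 0.488 in edgeR), and so did Osbpl5, with 31.7, 15.4 and 24.1 CPM against 34.3, 35.1 and 30.9 CPM in sh-NT. Both overlapped sh-NT, whereas Slc22a18 did not, and both Slc22a18 and Cobl were under 1 CPM in every library.

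Of 16 listed genes that set or protect imprints, 15 were tested, without Dnmt3l at 0 to 0.129 CPM. Zfp57, which binds methylated TGCCGC, held 333, 344 and 309 CPM in sh-Gpc4 and 278, 256 and 330 CPM in sh-Gpc2, against 288, 260 and 285 CPM in sh-NT. The sh-Gpc4 libraries were above sh-NT, with a log2 fold change of 0.24 (SE 0.10, adjusted p = 0.488 in edgeR). Of the 15 tested genes of that list, 1 was below sh-NT without overlap in sh-Gpc2 (6.67% apart against 7.7% of all genes). In sh-Gpc4, 1 was above and 6 were below sh-NT without overlap (46.7% against 24% of all genes), none past the test. Smchd1, a chromatin protein of silent alleles, was among the lower ones with 112, 99.1 and 94.3 CPM in sh-Gpc4 against 126, 126 and 116 CPM in sh-NT. Setdb1, a histone H3 lysine methyltransferase, had 76.3, 55.6 and 66.9 CPM in sh-Gpc4 against 87.6, 86.1 and 79.2 CPM in sh-NT, lowest in library 3. Dnmt1 and Uhrf1, also among the lower ones, had 207, 98.6 and 151 CPM and 113, 51.3 and 81.4 CPM in sh-Gpc4. In sh-NT they had 257, 268 and 228 CPM and 133, 150 and 124 CPM. Both were lowest in sh-Gpc4 library 3 and next lowest in sh-Gpc2 library 4 (113 and 65.1 CPM), the libraries that stood apart. Of 13 genes that bind or carry insulin-like growth factor signals, none passed, and 0 lay apart from sh-NT in sh-Gpc2 (against 7.7% of all genes). In sh-Gpc4, 2 were above and 2 below sh-NT without overlap (30.8% against 24% of all genes). Igfbp4, a binding protein, was a lower one at 22.8, 14.9 and 19.3 CPM in sh-Gpc4 against 27.7, 31 and 27.2 CPM in sh-NT. Insr, the insulin receptor, was a higher one at 53, 54.4 and 55.4 CPM in sh-Gpc4 against 50, 49.4 and 47.8 CPM in sh-NT.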

How the data were processed

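Raw read counts per gene were used as the authors deposited them, 1 column per library for 9 libraries. Per the submitters' processing notes, counting used featureCounts of Subread and the builds named were GRCm38 and mm10; no source used here names the aligner, annotation release, versions or use of strand. Per the labels' protocols, RNA came from a kit for small samples and a low-input library kit. Column names give the group, but their numbers do not match the titles' replicate numbers. GENCODE M21 matched 51486 of 78275 IDs (65.8%) to symbols and gave coordinates and exon lengths. Within groups, no pair of libraries agreed within sampling noise (chi-square over degrees of freedom 8.56 to 93.4).

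In R 4.3.3, edgeR 4.0.16 quasi-likelihood tests were fitted to all 9 libraries with TMM scaling and the default filter on low counts, with Benjamini-Hochberg adjustment over 27773 genes and a threshold of 0.05. SE is the log2 fold change over the square root of F. Correlations of log2 CPM (prior count 2) had two-sided exact permutation tests. Alternatives were DESeq2 1.42.0 (its size factors, and its Wald test), limma 3.58.1 voom with sample weights, other filters, fits of 2 groups, a replicate block and leaving out libraries; leaving out both libraries that stand apart and removing a GC trend (22126 genes with a value, spline of 6 df) were chosen after seeing the data. The edgeR step was tested on simulated data. Members and lists were chosen with earlier results of these data known. The text names all 32 members, the hairpins' targets and up to 4 genes of each further list by smallest edgeR p in sh-Gpc4 against sh-NT. Genes with a smaller p in another comparison were thus left out. Markers named as under 1 CPM in every library are apart from this rule. Trappc9 (host of Peg13), Kcnq1, Dnmt3l, Insr, Dnmt1, Uhrf1, Col1a1, Cspg4, Hes5, Pax6, Olig1 and Dlx1 were added after their values were seen.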

Additional observations from a re-analysis of the deposited data

How the results depend on the processing

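Under 18 alternatives, 29 printed fold changes gave 518 values, of which 516 kept their direction and none passed the threshold (lowest adjusted p 0.0531). The 2 that reversed were H19 at -0.72 and Igf2 at -0.47 in sh-Gpc2 against sh-NT without sh-Gpc2 library 2, and with each library left out in turn these ran from -0.72 to 0.94 and from -0.47 to 0.70. Counts of called genes stayed at 0 except for 39 genes in sh-Gpc4 against sh-NT by the DESeq2 Wald test; the cause was not tested. Called members were 0 throughout. Of the 26 pairs, 0 passed, and 0 to 1 when each library was left out in turn; r of Peg3 and Usp29 then ran from -0.03 to 0.20. A replicate block by column number left the counts of called genes at 0 and gave -0.44 for Peg13, -0.41 for H19 and -0.04 for Grb10 in sh-Gpc4 against sh-NT. Number 3 occurs only in sh-Gpc4, so the block also took sh-Gpc4 library 3 out of these estimates. Same-numbered libraries of different groups correlated at -0.10 to 0.68 over 7 pairs, and differently numbered ones at -0.87 to 0.83. Whether the numbers pair the libraries cannot be told from these overlapping ranges. Without both libraries that stand apart, chosen after seeing the data, Peg13 was at -0.17 and Igf2r at -0.11 in sh-Gpc2, and Igf2r at -0.27, Grb10 at -0.20 and Trappc9 at -0.49 in sh-Gpc4. Counting error limits Igf2, Mirg, Zim1, Rtl1 and Phlda2, at under 50 reads in every library.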
